A study of Mus musculus with 6 samples.

Results

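Aminoacyl-tRNA synthetases and the scaffold proteins that hold some of them together were followed in an immortalized mouse podocyte line after siRNA against Tfeb, which encodes a transcription factor of lysosome and autophagy genes. Members were chosen by name and biotype, with no measured value: protein-coding genes whose symbol is 1 letter followed by ars or ars2, and Eprs, Farsa, Farsb, Aimp1, Aimp2 and Eef1e1. The rule found 40 of the 53715 genes in the table, of which 20 encode cytosolic synthetases, 17 (symbols ending in 2) mitochondrial synthetases and 3 accessory proteins. All 40 reached the mean of 1 FPKM (fragments per kilobase of gene, corrected for library depth) required for testing.

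A synthetase joins an amino acid to its tRNA, the step that fixes the genetic code. Each enzyme is specific for its amino acid, and class I and class II enzymes have unrelated catalytic folds. In animal cells several cytosolic synthetases and the proteins encoded by Aimp1, Aimp2 and Eef1e1 form the multisynthetase complex, and a separate set of nuclear genes serves mitochondrial translation. When charging fails, uncharged tRNA activates the kinase GCN2, the product of Eif2ak4, and the transcription factor ATF4 is then translated; genes of amino acid synthesis and several synthetases are known ATF4 targets.

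The Tfeb siRNA cells were podocytes labelled TFEB knockdown and given an siRNA (3 libraries), and the scrambled siRNA cells were podocytes labelled WT and given a scrambled siRNA (3 libraries). Both groups were grown at 33 °C with interferon-γ and then differentiated at 37 °C for 10 to 14 days, with the serum lowered to 5%, against 10% before, and type I collagen added. The siRNA acts on the transcript and leaves the gene intact. The sources used here do not give age, sex or mouse strain, and all 6 libraries come from 1 cell line. Nothing says that the replicates were separate cultures, so the spread behind the p-values is that of these samples and may be technical.

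Derived read totals were 18062898 to 20010130 in Tfeb siRNA libraries and 20143910 to 20610888 in scrambled siRNA libraries, and mitochondrial genes held 1.44 to 1.57% of the reads in Tfeb siRNA and 1.36 to 1.43% in scrambled siRNA libraries. Tfeb itself had 0.639, 0.714 and 0.822 FPKM in Tfeb siRNA libraries, against 1.80, 2.05 and 2.27 FPKM in scrambled siRNA libraries. Its mean FPKM was 2.82-fold lower in Tfeb siRNA cells. The limma log2 fold change, taken on FPKM + 0.5, was smaller in size at -1.05 (SE 0.13, limma adjusted p = 0.00148). The exact two-sided permutation test gave p = 0.1, the smallest that 3 against 3 allows. Of 12 podocyte markers 8 reached 1 FPKM, with summed levels of 476 to 482 FPKM in Tfeb siRNA libraries and 477 to 503 FPKM in scrambled siRNA libraries, while 4 stayed below 1 FPKM, among them Nphs1, Wt1 and Ptpro, which mark the mature podocyte. Endothelial markers had none of 5 at 1 FPKM (summed 0.351 to 0.476 FPKM in Tfeb siRNA and 0.340 to 0.575 FPKM in scrambled siRNA libraries, Emcn at 0 in all 6). Mesangial, tubular and leukocyte lists had 1 gene each at that level (Pdgfrb, Lrp2 and Cd68), with Umod and Cd3e at 0 and summed levels of 30.8 to 33.3, 42.6 to 49.2 and 3.77 to 5.16 FPKM in Tfeb siRNA libraries, against 32.3 to 34.7, 46.4 to 56.6 and 4.89 to 6.74 FPKM in scrambled siRNA libraries. Across all 12257 genes tested, limma called 4080 (33.3%) at an adjusted p below 0.05, of which 2075 (16.9%) were higher and 2005 (16.4%) lower in Tfeb siRNA cells, and the groups did not overlap for 5971 genes (48.7%).

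Promoter sequences are shown first for the 5 synthetase genes whose proximal promoter held the core of the element bound by ATF4 and C/EBP proteins. Of these 5, Iars and Yars were called, in opposite directions. RefSeq's promoter table for GRCm38.p6, searched from 250 bases before to 50 bases after each start site, matched 30 of the 40 genes with 32 promoters; genes with no entry included Cars, Hars, Hars2, Lars, Nars, Pars2, Rars, Vars and Wars. Each stretch runs 5′ to 3′ on the gene's strand from 160 bases before to 30 bases after the RefSeq start site. Capitals mark the core TGATGNAA or its reverse complement TTNCATCA, and in Aars also an E-box palindrome. The shorter E-box CACGTG also lies in the Iars stretch, 69 bases before the start, and in the Tars stretch, 20 bases into the transcript. Both are left in lower case. The positions are Iars chr13:49681970-49682159 (+), Yars chr4:129189743-129189932 (+), Aars chr8:111033682-111033871 (+), Gars chr6:55037841-55038030 (+) and Tars chr15:11399629-11399818 (−).
Iars: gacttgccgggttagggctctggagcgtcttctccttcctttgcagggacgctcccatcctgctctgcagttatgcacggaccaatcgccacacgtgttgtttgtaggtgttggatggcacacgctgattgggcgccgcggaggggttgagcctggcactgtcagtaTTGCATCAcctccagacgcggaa
Yars: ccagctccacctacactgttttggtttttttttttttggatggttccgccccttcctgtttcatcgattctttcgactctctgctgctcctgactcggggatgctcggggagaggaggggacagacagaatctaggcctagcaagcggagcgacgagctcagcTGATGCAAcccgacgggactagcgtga
Aars: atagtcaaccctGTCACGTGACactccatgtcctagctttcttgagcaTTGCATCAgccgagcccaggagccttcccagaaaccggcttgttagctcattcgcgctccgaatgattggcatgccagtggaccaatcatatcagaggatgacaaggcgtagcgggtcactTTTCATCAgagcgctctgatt
Gars: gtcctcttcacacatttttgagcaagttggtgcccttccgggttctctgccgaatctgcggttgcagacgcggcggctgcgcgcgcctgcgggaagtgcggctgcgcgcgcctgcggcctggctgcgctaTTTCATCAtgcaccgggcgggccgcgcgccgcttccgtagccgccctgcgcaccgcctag
Tars: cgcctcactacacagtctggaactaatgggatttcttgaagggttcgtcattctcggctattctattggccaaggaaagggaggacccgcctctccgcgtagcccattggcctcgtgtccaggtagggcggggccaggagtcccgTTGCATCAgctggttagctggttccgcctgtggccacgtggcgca

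Counted from the RefSeq start sites, the core began 8 bases into the Iars transcript, 4 bases into the Yars transcript and 15 bases before the start of Tars. The deposited gene positions differ. There Yars starts at 129189760, within the printed stretch and ahead of its core, and Aars at 111033144, before the whole stretch. Gars held it 30 bases before the start, and Aars held it at 112 bases before and 10 bases after. Of the 30 synthetase and accessory genes with a promoter, 5 (16.7%) held the core on either strand, as did 2.54% of the 8495 tested genes with a promoter entry. Among tested genes that held it and whose symbol has 1 tested row, 32 of 215 (14.9%) were higher and 51 (23.7%) lower in Tfeb siRNA cells; of the 8490 such genes with a promoter, 18.0% were higher and 17.3% lower. Of these 5 synthetases Iars fell, Yars rose, and Aars, Gars and Tars were not called. The Aars palindrome was the single match among the members to GTCACGTG (reverse CACGTGAC), the E-box form known for TFEB, so 3.33% of the 30 genes held it beside 5.11% of tested genes. The shorter CACGTG, which overlaps GTCACGTG, was in 5 of 30 (16.7%) beside 12.1%, namely Aars, Ears2, Farsb, Iars and Tars. TGACNNNGC (reverse GCNNNGTCA), the core bound by NRF2, was in 9 of 30 (30%) beside 17.2%. These letters are a description of the window and no evidence of binding.

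Most synthetase transcripts kept close to their control level after Tfeb siRNA. Limma called 10 of the 40 (25%), beside 33.3% of all tested genes: Fars2, Sars2 and Yars rose, and Iars, Mars2, Aimp2, Pars2, Aimp1, Eprs and Farsb fell. The 3 that rose are 7.50% of the 40 beside a background of 16.9%, and the 7 that fell are 17.5% beside 16.4%, so the share of members that fell was near that of all genes. The ratio of group means stayed within 1.2-fold for 31 of 40 members (77.5%) and for 60.2% of all tested genes, and it reached 1.5-fold for 3 members (Iars, Mars2 and Fars2) and for 11.3% of genes. The median log2 fold change of the members was -0.003, and that of all tested genes was 0.02. Groups did not overlap for 17 of the 40 members beside 48.7% of all genes. In these bulk libraries, fewer cells of a kind and less RNA per cell cannot be told apart.

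With the replicate number as a block, 14 members were called, 7 in each direction, as Eef1e1, Lars2, Mars and Vars joined those that rose; 40.2% of all genes were then called. Without the low-value filter 5 members were called, all lower, and 11.8% of all genes were. Leaving out a library left 4 called without Tfeb siRNA replicate 2 or 3, 5 without scrambled siRNA replicate 1 or 3, 6 without scrambled siRNA replicate 2 and 7 without Tfeb siRNA replicate 1, where 22.6 to 27.8% of all genes were called. Iars, Aimp2 and Mars2 were among them every time.

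**Figure D1:**
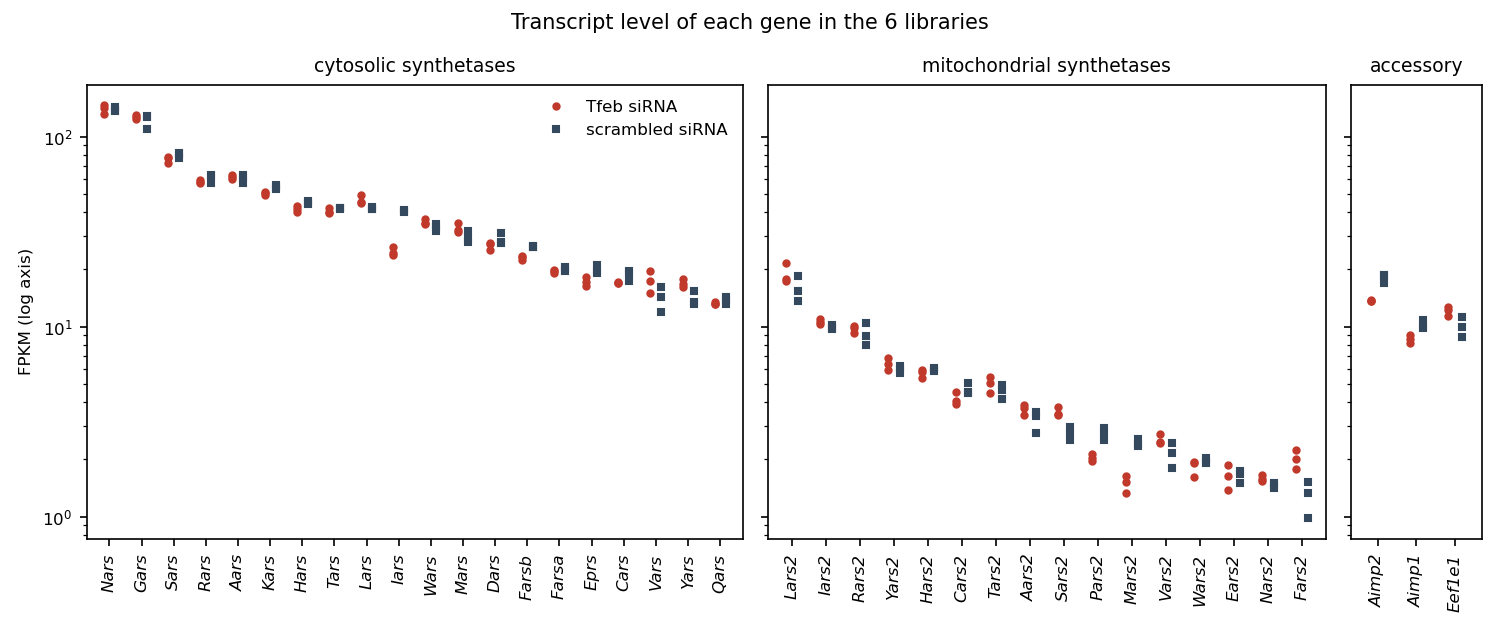
FPKM on a log axis for each gene shown, in 3 Tfeb siRNA libraries (circles) and 3 scrambled siRNA libraries (squares), in 3 panels for cytosolic, mitochondrial and accessory genes, ordered by the scrambled siRNA mean. Nars is highest at 140.1 FPKM in Tfeb siRNA and 139.5 FPKM in scrambled siRNA cells, and the Iars points of the groups lie clearly apart.

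Among cytosolic synthetases the highest levels per length were those of Nars, the asparagine enzyme, and Gars, the glycine enzyme that also serves mitochondria. Nars had 147, 131 and 142 FPKM in Tfeb siRNA libraries, against 136, 139 and 144 FPKM in scrambled siRNA libraries. The groups overlapped, and the difference was 0.01 on the log2 scale (SE 0.06, 95% interval -0.13 to 0.14, limma adjusted p = 0.955). Its sign turned under 4 of 12 alternatives: it was -0.02 with TPM scaling, and negative without Tfeb siRNA replicate 1, Tfeb siRNA replicate 3 or scrambled siRNA replicate 1. Gars averaged 127 ± 2.83 FPKM in Tfeb siRNA and 122 ± 10.5 FPKM in scrambled siRNA cells (SD, n = 3 each), followed by Sars (serine) with 75.9 ± 3.25 FPKM in Tfeb siRNA and 80.2 ± 2.20 FPKM in scrambled siRNA cells. Aars (alanine) and Rars (arginine) came next, with 61.3 ± 1.35 and 58.0 ± 1.30 FPKM in Tfeb siRNA cells, against 60.4 ± 2.93 and 60.7 ± 3.31 FPKM in scrambled siRNA cells, so their order differed between the groups, and in scrambled siRNA cells they lay within each other's spread. Of the exonic bases of Aars, 14.3% overlap Exosc6 on the same strand, a gene with 0 FPKM in all 6 libraries. Qars, the glutamine enzyme, was lowest at 13.3 ± 0.136 FPKM in Tfeb siRNA and 13.8 ± 0.600 FPKM in scrambled siRNA cells. The summed level of the 20 genes was 902, 872 and 885 FPKM in Tfeb siRNA libraries, against 884, 914 and 918 FPKM in scrambled siRNA libraries, and these ranges overlapped.

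Iars, which charges isoleucine and belongs to the multisynthetase complex, changed most among the 40. By the ratio of group means Mars2 was close, at 1.62-fold lower against 1.63-fold for Iars. The Iars gene lies on chromosome 13 (49682100 to 49734267, plus strand, mm10). Its level was 26.1, 24.5 and 23.9 FPKM in Tfeb siRNA libraries, against 40.6, 41.1 and 40.3 FPKM in scrambled siRNA libraries. Every Tfeb siRNA library lay below every scrambled siRNA library, and the gap was several times the range within either group. Mean FPKM was 1.63-fold lower, a log2 fold change of -0.70 (SE 0.05, 95% interval -0.82 to -0.58, limma adjusted p = 0.000324), and it rested on 7529 reads in Tfeb siRNA and 13382 reads in scrambled siRNA libraries. The adjusted p ranged from 4.65e-06 to 0.00295 over 12 alternatives.

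The fall of Iars was also seen relative to other synthetases. Its rank among the cytosolic enzymes was 13 in every Tfeb siRNA library and 10 in every scrambled siRNA library, and its share of their summed FPKM was 2.71 to 2.90% in Tfeb siRNA and 4.39 to 4.60% in scrambled siRNA libraries. The ratio of Iars to Lars, the leucine enzyme of the same complex, was 0.527, 0.538 and 0.537 in Tfeb siRNA libraries, against 0.972, 0.967 and 0.972 in scrambled siRNA libraries. The ratio to Iars2, the mitochondrial enzyme for the same amino acid, was 2.33 ± 0.0378 in Tfeb siRNA and 4.07 ± 0.108 in scrambled siRNA cells (SD, n = 3 each). Of the exonic bases of Iars2, 22.9% overlap Rab3gap2 on the opposite strand, and whether counting used strand is not given. Rab3gap2 averaged 9.77 ± 0.367 FPKM in Tfeb siRNA and 9.13 ± 0.262 FPKM in scrambled siRNA cells. Lars averaged 46.6 ± 2.64 FPKM in Tfeb siRNA and 41.9 ± 0.506 FPKM in scrambled siRNA cells (log2 fold change 0.15, limma adjusted p = 0.0781), and Iars2 averaged 10.7 ± 0.324 FPKM in Tfeb siRNA and 9.99 ± 0.273 FPKM in scrambled siRNA cells (0.09, adjusted p = 0.231). Of the 50-base words of Iars transcripts, 7.15% also occur in the gene Gm4849, whose own level was 0.405 ± 0.0651 FPKM in Tfeb siRNA and 0.977 ± 0.158 FPKM in scrambled siRNA cells; the sources used here do not say how reads were divided between them.

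Farsa and Farsb encode the subunits of the phenylalanine enzyme, which works as a tetramer of both. Farsb had 23.2, 23.7 and 22.6 FPKM in Tfeb siRNA libraries, against 26.3, 26.4 and 26.5 FPKM in scrambled siRNA libraries, and the groups did not overlap. It fell by 0.19 on the log2 scale (SE 0.05, limma adjusted p = 0.0183), a 1.14-fold difference of means. The call was lost without scrambled siRNA replicate 2 (adjusted p = 0.0544), scrambled siRNA replicate 3 (0.0659) or Tfeb siRNA replicate 3 (0.0605). Farsa averaged 19.5 ± 0.316 FPKM in Tfeb siRNA and 20.2 ± 0.456 FPKM in scrambled siRNA cells, was not called (adjusted p = 0.459), and the Farsb to Farsa ratio was 1.19 ± 0.0299 in Tfeb siRNA and 1.31 ± 0.0269 in scrambled siRNA cells (SD, n = 3 each).

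Yars, the tyrosine enzyme, was the only cytosolic synthetase that rose in the fit without a block. It had 16.8, 16.2 and 17.9 FPKM in Tfeb siRNA libraries, against 13.1, 15.5 and 13.5 FPKM in scrambled siRNA libraries. The nearest libraries of the groups were 0.71 FPKM apart, and the fold change was 0.27 on the log2 scale (SE 0.08, limma adjusted p = 0.0330). The call was lost without the low-value filter (adjusted p = 0.0734) and on leaving out Tfeb siRNA replicate 1 (0.0722), 2 (0.0552) or 3 (0.10) or scrambled siRNA replicate 1 (0.0860) or 3 (0.104). Vars, the valine enzyme, averaged 17.4 ± 2.36 FPKM in Tfeb siRNA and 14.1 ± 2.09 FPKM in scrambled siRNA cells with a log2 fold change of 0.29, the largest among members not called (limma adjusted p = 0.132), and was called with the replicate block (0.00574). Mars, the methionine enzyme, likewise averaged 33.0 ± 1.87 FPKM in Tfeb siRNA and 29.7 ± 1.95 FPKM in scrambled siRNA cells (0.15, adjusted p = 0.131, and 0.0414 with the block).

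The remaining cytosolic enzymes were not called. Kars (lysine, also used by mitochondria) averaged 50.4 ± 0.833 FPKM in Tfeb siRNA and 54.5 ± 1.39 FPKM in scrambled siRNA cells, and Hars (histidine) averaged 41.7 ± 1.42 FPKM in Tfeb siRNA and 44.9 ± 1.06 FPKM in scrambled siRNA cells; neither pair of groups overlapped. Tars (threonine), Wars (tryptophan), Dars (aspartate) and Cars (cysteine) had log2 fold changes of -0.04, 0.09, -0.11 and -0.13, with limma adjusted p of 0.502, 0.244, 0.235 and 0.140. By catalytic class, limma called 3 of 10 cytosolic class I genes (Iars and Eprs lower, Yars higher; 30%, beside 33.3% of all genes) and 1 of 10 class II genes (Farsb, lower; 10%). Eprs was counted with class I, as its glutamate part is class I, while its proline part is class II. The difference between the classes was not tested.

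**Figure D2:**
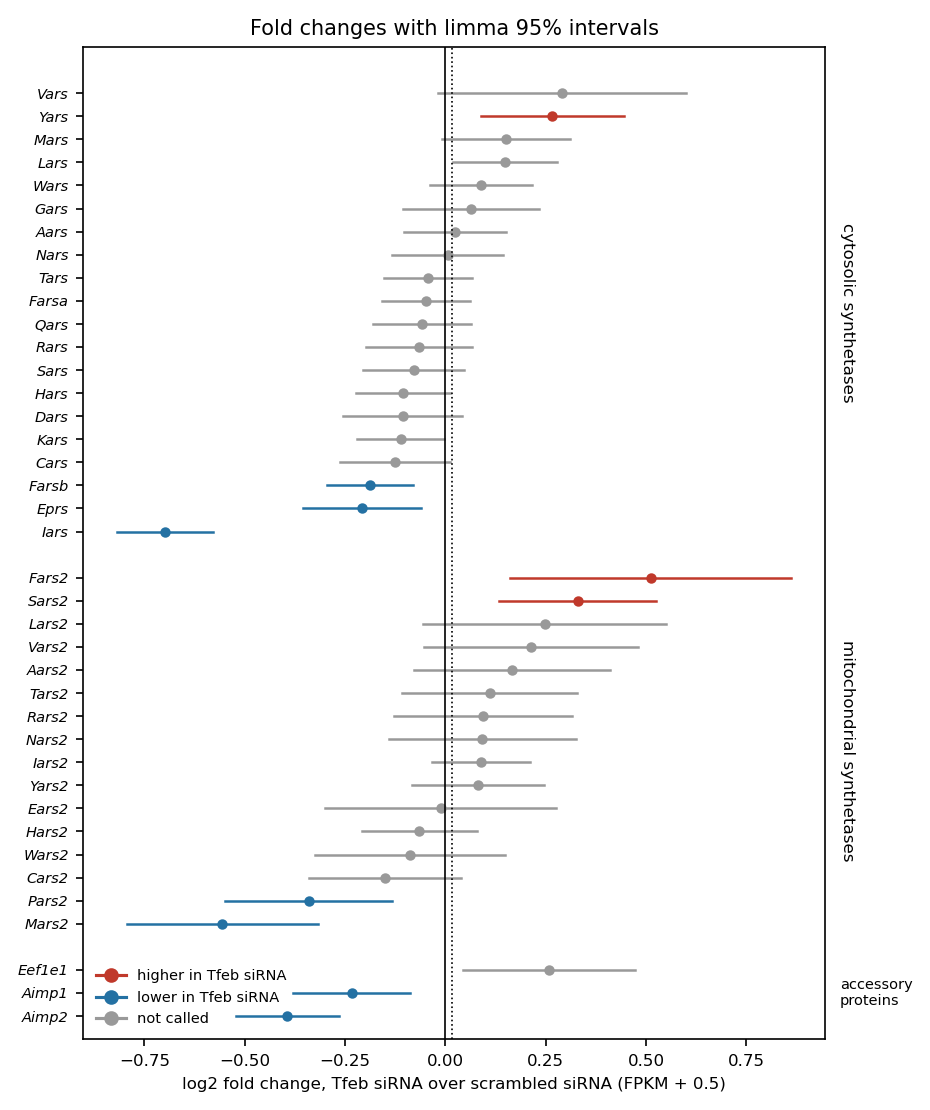
Log2 fold change of each gene shown (Tfeb siRNA over scrambled siRNA, on FPKM + 0.5) with its 95% limma interval, in blocks for cytosolic, mitochondrial and accessory genes; red is higher, blue lower and grey not called, and the dotted line is the median of all tested genes (0.02). Iars lies lowest at -0.70 and Fars2 highest at 0.51, and the 10 called genes are coloured.

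The multisynthetase complex is held together by Aimp2, which bridges its subcomplexes, with Aimp1 and Eef1e1 as further scaffolds. Of its 11 genes 4 fell (Iars, Eprs, Aimp1 and Aimp2) and 0 rose by the limma test. The share that fell was 36.4%, beside 16.4% of all genes called lower and 33.3% called in either direction, a difference not tested. At an unadjusted p below 0.05, 2 of the 11 were higher (Eef1e1 and Lars), and limma-voom on reads derived from the FPKM values called 1 higher (Eef1e1); with the replicate block 2 were called higher (Eef1e1 and Mars). The median log2 fold change was -0.11, and the 12 cytosolic synthetase genes outside the complex had 1 higher, 1 lower and a median of -0.02. The complex's summed level was 311, 305 and 297 FPKM in Tfeb siRNA libraries, against 334, 325 and 327 FPKM in scrambled siRNA libraries. These sums did not overlap; Iars alone differed by 15.8 FPKM of the 24.2 FPKM between their means.

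Aimp2 fell with little spread. It had 13.6, 13.7 and 13.7 FPKM in Tfeb siRNA libraries, against 17.1, 18.7 and 18.7 FPKM in scrambled siRNA libraries, which left a clear gap between the groups. The means were 1.33-fold apart, with a log2 fold change of -0.39 (SE 0.05, limma adjusted p = 0.00227; 0.00146 to 0.0129 over 12 alternatives). Of its exonic bases, 29.4% overlap Eif2ak1 on the opposite strand, which was higher at 9.505 ± 0.273 FPKM in Tfeb siRNA and 8.17 ± 0.367 FPKM in scrambled siRNA cells, and the sources used here do not say whether counting used strand.

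Aimp1 had 8.63, 8.22 and 8.98 FPKM in Tfeb siRNA libraries, against 10.8, 9.86 and 9.95 FPKM in scrambled siRNA libraries. The groups did not overlap, and it fell by 0.23 on the log2 scale (SE 0.06, limma adjusted p = 0.0260), a call lost without Tfeb siRNA replicate 1 (0.0619) or 2 (0.0802) or scrambled siRNA replicate 1 (0.0687) or 3 (0.0593). Eprs, which encodes a fused enzyme for glutamate and proline, had 18.2, 17.1 and 16.4 FPKM in Tfeb siRNA libraries, against 21.1, 19.1 and 19.7 FPKM in scrambled siRNA libraries. Its groups were also separate, and it fell by 0.21 (SE 0.06, adjusted p = 0.0407). That call was lost without the filter (0.0738), with TPM scaling (0.0578), and without Tfeb siRNA replicate 2 (0.0988) or 3 (0.118) or scrambled siRNA replicate 1 (0.103), 2 (0.0534) or 3 (0.0944).

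Eef1e1 lay on the other side of zero from both Aimp genes. It had 12.6, 11.4 and 12.2 FPKM in Tfeb siRNA libraries, against 11.3, 8.86 and 10.0 FPKM in scrambled siRNA libraries. The lowest Tfeb siRNA library was just above the highest scrambled siRNA library, and the log2 fold change of 0.26 (SE 0.09) missed the threshold (limma adjusted p = 0.0678). It passed with the replicate block (0.0187), with voom (0.0417) and without scrambled siRNA replicate 1 (0.0233).

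**Figure D3:**
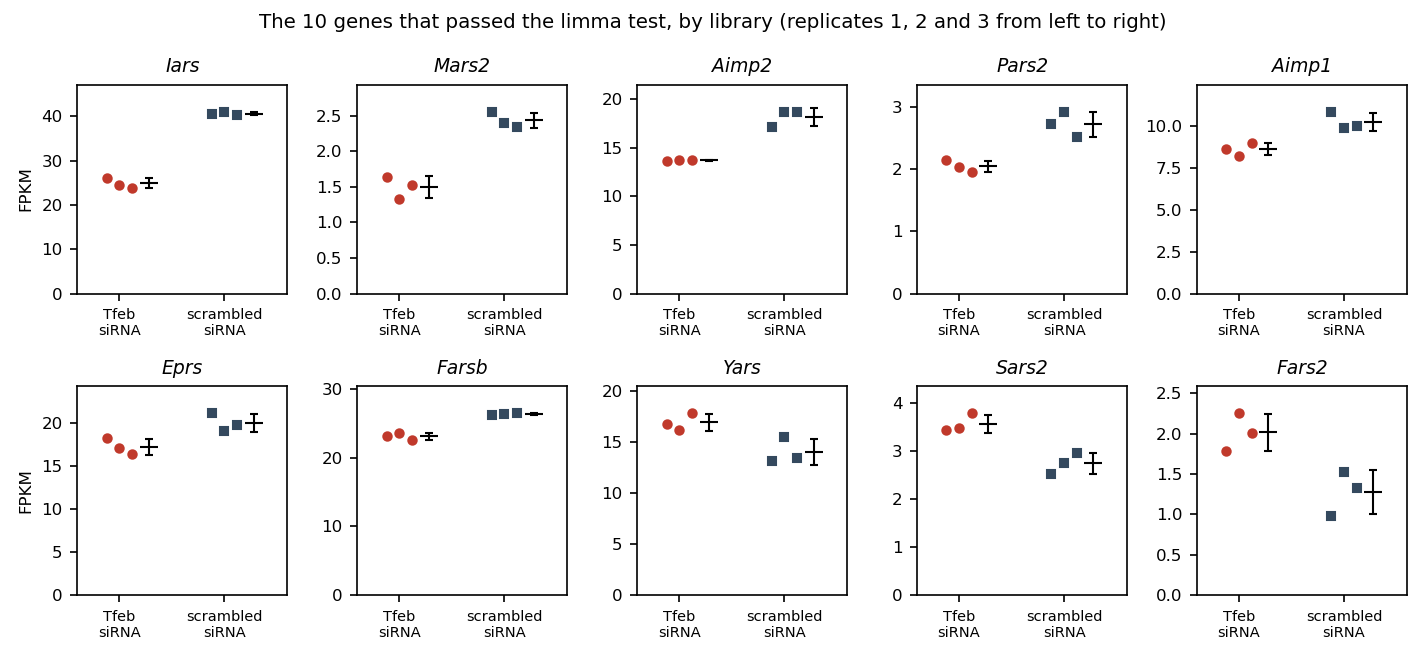
FPKM of the 10 genes that passed the limma test, each in its own panel with an axis from 0: circles are the 3 Tfeb siRNA libraries, squares the 3 scrambled siRNA libraries, and bars the mean ± SD. Iars and Aimp2 show wide gaps between tight groups, while for Yars and Fars2 the nearest libraries of the groups lie close together.

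Mitochondrial synthetases were expressed at lower levels per length than their cytosolic counterparts, in both groups. Over 18 pairs of genes for 1 amino acid, the cytosolic to mitochondrial ratio of mean FPKM ran between 2.33 and 88.2 with a median of 9.05 in Tfeb siRNA cells, and between 2.35 and 95.5 with a median of 10.7 in scrambled siRNA cells. Asparagine had the widest ratio in each group. Glutamine, glycine and lysine have no second gene in the set. The 17 summed levels were 85.5, 82.5 and 80.4 FPKM in Tfeb siRNA libraries, against 79.9, 76.3 and 76.8 FPKM in scrambled siRNA libraries, which did not overlap; of the cytosolic and mitochondrial sums together this was 8.33 to 8.66% in Tfeb siRNA and 7.71 to 8.29% in scrambled siRNA libraries. By the limma test 2 of 17 rose and 2 fell (23.5% called, beside 33.3%), with a median log2 fold change of 0.09 and 6 of 17 without overlap, beside 48.7% of all genes.

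Lars2, the mitochondrial leucine enzyme, was highest. It had 21.7, 17.7 and 17.3 FPKM in Tfeb siRNA libraries, against 18.6, 13.6 and 15.5 FPKM in scrambled siRNA libraries. Replicate 1 was high in each group and the groups overlapped, with a log2 fold change of 0.25 (SE 0.13, 95% interval -0.06 to 0.55, limma adjusted p = 0.183, and 0.0216 with the replicate block). Iars2 and Rars2 followed, and the other 14 mitochondrial enzymes averaged at most 6.36 FPKM in Tfeb siRNA and 5.99 FPKM in scrambled siRNA cells.

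Mars2, the mitochondrial methionine enzyme, had the largest fall of the 17. It had 1.64, 1.33 and 1.53 FPKM in Tfeb siRNA libraries, against 2.56, 2.40 and 2.35 FPKM in scrambled siRNA libraries, on 970 reads in Tfeb siRNA and 1718 reads in scrambled siRNA libraries. The groups were well apart: means were 1.62-fold lower, or -0.56 on the log2 scale (SE 0.10, limma adjusted p = 0.00645). By group means its rank among the 17 was last in Tfeb siRNA and 11 in scrambled siRNA cells. The last rank did not hold in every library. In Tfeb siRNA replicate 1, Mars2 (1.64 FPKM) lay above Ears2 (1.39 FPKM) and Nars2 (1.58 FPKM).

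Pars2, the mitochondrial proline enzyme, had 2.14, 2.03 and 1.96 FPKM in Tfeb siRNA libraries, against 2.73, 2.92 and 2.52 FPKM in scrambled siRNA libraries. It fell by 0.34 on the log2 scale (SE 0.09, limma adjusted p = 0.0239) with no overlap. The call was lost without the filter (0.0676) and without Tfeb siRNA replicate 2 (0.0639) or 3 (0.0693) or scrambled siRNA replicate 1 (0.0617) or 2 (0.0825). Both enzymes for proline, Pars2 and the fused Eprs, were thus among those that fell.

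Fars2, the mitochondrial phenylalanine enzyme and lowest of all 40 in scrambled siRNA cells, had 1.79, 2.25 and 2.01 FPKM in Tfeb siRNA libraries, against 0.977, 1.52 and 1.32 FPKM in scrambled siRNA libraries. It rose 1.58-fold in mean FPKM, on 669 reads in Tfeb siRNA and 457 reads in scrambled siRNA libraries. Its limma log2 fold change, taken on FPKM + 0.5, was 0.51 (SE 0.15, limma adjusted p = 0.0359). Spread within the groups was wide, and the call was lost without the filter (0.105) and without Tfeb siRNA replicate 1 (0.05004), 2 (0.112) or 3 (0.0883) or scrambled siRNA replicate 1 (0.0787) or 3 (0.0777). Sars2, the mitochondrial serine enzyme, had 3.43, 3.47 and 3.78 FPKM in Tfeb siRNA libraries, against 2.52, 2.74 and 2.94 FPKM in scrambled siRNA libraries. All its Tfeb siRNA values were higher, with a log2 fold change of 0.33 (SE 0.08, adjusted p = 0.0216). Its call was lost without the filter (0.0573) and without Tfeb siRNA replicate 2 (0.0525) or 3 (0.0703) or scrambled siRNA replicate 1 (0.0589) or 2 (0.0571).

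The other 12 mitochondrial enzymes beside Lars2 were not called, with log2 fold changes between -0.15 (Cars2) and 0.21 (Vars2). Yars2 averaged 6.36 ± 0.454 FPKM in Tfeb siRNA and 5.99 ± 0.251 FPKM in scrambled siRNA cells, Hars2 5.67 ± 0.294 FPKM in Tfeb siRNA and 5.95 ± 0.122 FPKM in scrambled siRNA cells, and Tars2 4.98 ± 0.487 FPKM in Tfeb siRNA and 4.57 ± 0.391 FPKM in scrambled siRNA cells (SD, n = 3 each). Aars2 averaged 3.67 ± 0.220 FPKM in Tfeb siRNA and 3.23 ± 0.436 FPKM in scrambled siRNA cells, and Rars2 9.69 ± 0.438 FPKM in Tfeb siRNA and 9.10 ± 1.199 FPKM in scrambled siRNA cells. Ears2, Nars2 and Wars2 averaged 1.59 to 1.82 FPKM in Tfeb siRNA and 1.46 to 1.96 FPKM in scrambled siRNA cells, where the intervals are wide: that of Ears2 was -0.30 to 0.28 on the log2 scale. Hars and Hars2 are divergent neighbours that share 195 exonic bases on opposite strands, 7.97% of Hars and 4.56% of Hars2.

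Pathway genes around the synthetases were described from lists chosen with earlier results of these data known. Wherever a list below had 0 genes in a direction by limma, it also had 0 in that direction by voom and 0 at an unadjusted p below 0.05. Of the ATF4 list (ATF4, its partners and textbook targets outside the synthetases) 32 of 35 were tested. By limma 11 fell and 0 rose, with a median log2 fold change of -0.15. The 11 are 34.4% of those tested, beside 16.4% of all genes called lower and 33.3% called in either direction. This difference was not tested. Those that fell were Atf3, Ddit3, Cebpg, Trib3, Chac1, Phgdh, Psph, Cth, Ppp1r15a, Nupr1 and Jdp2, which include transcription factors, a glutathione-degrading enzyme (Chac1) and enzymes of serine (Phgdh, Psph) and cysteine (Cth) synthesis. Cth averaged 4.32 ± 0.329 FPKM in Tfeb siRNA and 7.38 ± 1.19 FPKM in scrambled siRNA cells (SD, n = 3 each; log2 fold change -0.70, adjusted p = 0.00476), and Atf3 averaged 8.91 ± 2.62 FPKM in Tfeb siRNA and 14.5 ± 2.61 FPKM in scrambled siRNA cells (-0.70, adjusted p = 0.0400). The Atf3 call was lost without the filter (0.112) and without Tfeb siRNA replicate 1 (0.0862) or 2 (0.103) or scrambled siRNA replicate 2 (0.0825) or 3 (0.118). The count lower in the list was 6 without Tfeb siRNA replicate 1 or scrambled siRNA replicate 2 or 3, 5 without Tfeb siRNA replicate 2 and 6 without the filter, and with the replicate block 14 were lower and 3 higher.

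Atf4 itself averaged 149 ± 4.805 FPKM in Tfeb siRNA and 169 ± 8.42 FPKM in scrambled siRNA cells, without overlap (log2 fold change -0.18, SE 0.06, limma adjusted p = 0.0507). It passed with TPM scaling (0.0145), the replicate block (0.0206), voom (0.0261) and without scrambled siRNA replicate 1 (0.0373). Asns, asparagine synthetase and a much used readout of ATF4, averaged 48.3 ± 1.43 FPKM in Tfeb siRNA and 48.6 ± 0.746 FPKM in scrambled siRNA cells (-0.01, SE 0.05, 95% interval -0.12 to 0.10, adjusted p = 0.891), and its sign turned without Tfeb siRNA replicate 2 (0.01) or scrambled siRNA replicate 2 (0.002). Ddit3 shares 68 exonic bases with Mars on the opposite strand, 1.99% of the exonic bases of Mars.

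A list for the response to uncharged tRNA held the sensor GCN2 and its partners, ABCF proteins, other kinases of eIF2 and subunits of eIF2 and of its exchange factor. Of 17 genes 5 rose and 2 fell by limma (41.2% called, beside 33.3%), with a median log2 fold change of 0.03. Eif2ak4, which encodes GCN2, averaged 5.61 ± 0.420 FPKM in Tfeb siRNA and 5.48 ± 0.145 FPKM in scrambled siRNA cells (0.03, adjusted p = 0.779), with its sign turned without Tfeb siRNA replicate 3 (-0.002). Impact, which encodes a competitor of GCN2 for its activator GCN1, averaged 48.0 ± 3.80 FPKM in Tfeb siRNA and 34.9 ± 3.52 FPKM in scrambled siRNA cells (0.46, adjusted p = 0.00853), and Eif2s3x, the eIF2 gamma subunit, 43.5 ± 0.928 FPKM in Tfeb siRNA and 32.9 ± 0.965 FPKM in scrambled siRNA cells (0.40, adjusted p = 0.00139). Eif2b2, a subunit of the eIF2 exchange factor, averaged 27.6 ± 1.23 FPKM in Tfeb siRNA and 34.9 ± 1.98 FPKM in scrambled siRNA cells (-0.33, adjusted p = 0.00720). Abcf2 was the other gene that fell (-0.15, adjusted p = 0.0429), a call lost without the filter (0.0535) and on leaving out any 1 library (0.0591 to 0.109). The count higher was 3 without Tfeb siRNA replicate 1, 2 or 3 or scrambled siRNA replicate 1, and 2 without scrambled siRNA replicate 3; the count lower was 1 without any 1 of the 6 libraries.

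**Figure D4:**
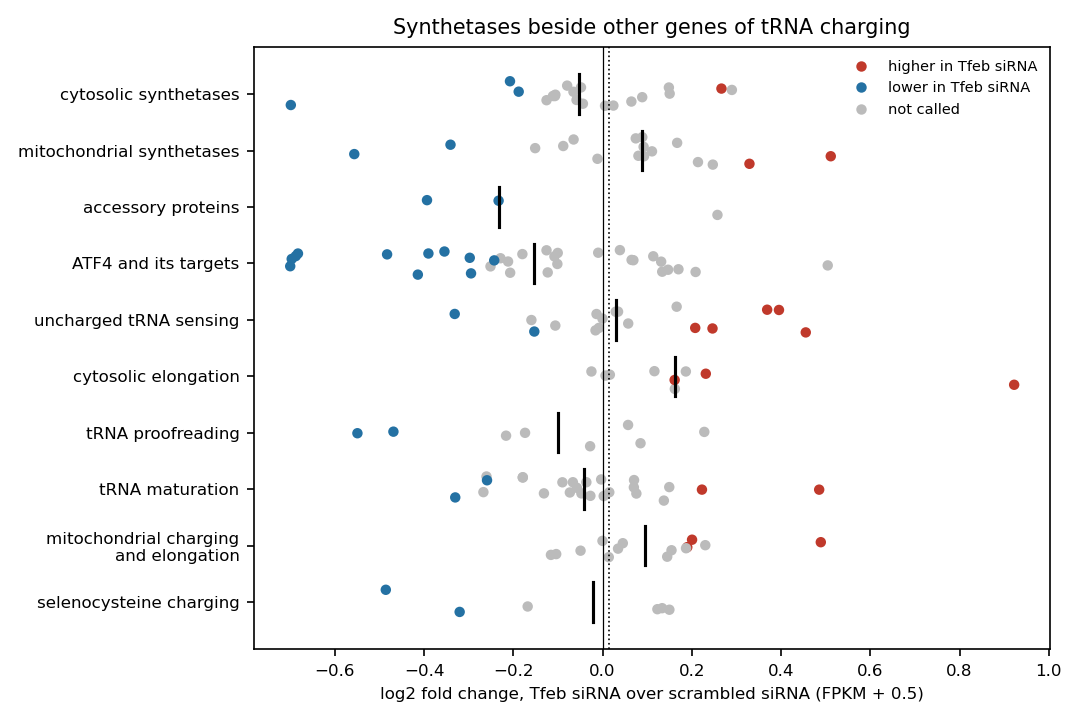
Log2 fold change (Tfeb siRNA over scrambled siRNA, on FPKM + 0.5) of every tested gene of the 3 synthetase groups and of 7 further lists, with black bars at each list's median and a dotted line at the median of all tested genes (0.02). Red points are higher, blue lower and grey not called; Etf1 at 0.92 lies farthest right, and the ATF4 list's median is -0.15.

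Charged tRNAs are carried to the ribosome by elongation factors. Of 9 cytosolic elongation and termination genes 3 rose and 0 fell by limma, with a median log2 fold change of 0.16. The share that rose was 33.3%, beside 16.9% of all genes called higher and 33.3% called in either direction, a difference not tested. Etf1, which encodes the release factor that reads stop codons, averaged 104 ± 3.81 FPKM in Tfeb siRNA and 54.4 ± 1.82 FPKM in scrambled siRNA cells (SD, n = 3 each; log2 fold change 0.92, SE 0.05, adjusted p = 0.000172). Eef1g, part of the exchange factor that reloads the elongation factor eEF1A, averaged 153 ± 3.60 FPKM in Tfeb siRNA and 130.3 ± 8.51 FPKM in scrambled siRNA cells (0.23, adjusted p = 0.0261), a call lost without the filter (0.0676) and without any 1 library other than scrambled siRNA replicate 3 (0.0501 to 0.0816). The list's count higher was 1 without scrambled siRNA replicate 2 or Tfeb siRNA replicate 1, 2 or 3.

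Proofreading and synthetase-like genes included 2 of 8 that fell and 0 that rose, with a median log2 fold change of -0.10. The share that fell was 25%, beside 16.4% of all genes called lower and 33.3% called in either direction. Dtd2, a deacylase that clears wrongly charged tRNA, averaged 2.04 ± 0.201 FPKM in Tfeb siRNA and 3.22 ± 0.106 FPKM in scrambled siRNA cells (log2 fold change -0.55, limma adjusted p = 0.00447). Tarsl2, a second cytosolic threonine enzyme outside the naming rule, averaged 2.01 ± 0.0523 FPKM in Tfeb siRNA and 2.98 ± 0.273 FPKM in scrambled siRNA cells (-0.47, adjusted p = 0.00811), while Tars averaged 40.7 ± 1.26 FPKM in Tfeb siRNA and 42.0 ± 0.390 FPKM in scrambled siRNA cells and was not called.

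Of 24 tested genes of tRNA maturation 2 rose and 2 fell (16.7% called, beside 33.3%; median -0.04). Pop1, a protein of RNase P, averaged 11.2 ± 0.881 FPKM in Tfeb siRNA and 7.87 ± 0.750 FPKM in scrambled siRNA cells (log2 fold change 0.49, limma adjusted p = 0.00582), and Xpot, the tRNA exporter, averaged 25.5 ± 1.196 FPKM in Tfeb siRNA and 30.6 ± 0.121 FPKM in scrambled siRNA cells (-0.26, adjusted p = 0.00911). The other calls, Polr3b (0.22, adjusted p = 0.0354) and Trnt1, which adds the CCA end (-0.33, adjusted p = 0.0439), were less stable. Polr3b missed the threshold without the filter (0.0694), with TPM (0.0919) and without Tfeb siRNA replicate 1 (0.0961) or 2 (0.106) or scrambled siRNA replicate 1 (0.0864), 2 (0.0963) or 3 (0.0649). Trnt1 missed it without the filter (0.108) and without Tfeb siRNA replicate 1 (0.117) or 3 (0.124) or scrambled siRNA replicate 1 (0.109) or 2 (0.0924). The list's count was 1 higher without Tfeb siRNA replicate 2 or any scrambled siRNA replicate, and 1 lower without Tfeb siRNA replicate 1 or 3 or scrambled siRNA replicate 1 or 2.

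Mitochondrial charging and elongation had 3 of 14 genes higher and 0 lower, with a median log2 fold change of 0.10. The share that rose was 21.4%, beside 16.9% of all genes called higher and 33.3% called in either direction. Gatb, a subunit of the amidotransferase that makes mitochondrial glutaminyl-tRNA, averaged 2.91 ± 0.396 FPKM in Tfeb siRNA and 1.92 ± 0.0849 FPKM in scrambled siRNA cells (log2 fold change 0.49, limma adjusted p = 0.0132). Gfm1, a mitochondrial elongation factor, averaged 11.0 ± 0.455 FPKM in Tfeb siRNA and 9.51 ± 0.405 FPKM in scrambled siRNA cells (0.20, adjusted p = 0.0353), and lost its call without the filter (0.0594), with TPM (0.101) and without Tfeb siRNA replicate 1 (0.0976) or 2 (0.0970) or scrambled siRNA replicate 1 (0.0880) or 3 (0.112). The list's count higher was 1 without these same libraries.

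Selenocysteine is made on its tRNA. Of the 6 genes listed around that route, 2 fell and 0 rose by limma (median -0.02). The share that fell was 33.3%, beside 16.4% of all genes called lower and 33.3% called in either direction, a difference not tested. Sepsecs, which converts the tRNA-bound precursor to selenocysteine, averaged 2.52 ± 0.373 FPKM in Tfeb siRNA and 3.72 ± 0.374 FPKM in scrambled siRNA cells (log2 fold change -0.49, limma adjusted p = 0.0191). Its call was lost without the filter (0.0578) and without scrambled siRNA replicate 1 (0.0566) or 2 (0.0571), which left 1 lower gene in the list. Sephs1, the other gene of the list that fell, averaged 7.69 ± 0.597 FPKM in Tfeb siRNA and 9.71 ± 0.387 FPKM in scrambled siRNA cells (-0.32, adjusted p = 0.0125). Whether Sephs1 acts in this route was not examined.

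An siRNA strand can also lower transcripts that match its seed in the 3′ UTR, and the siRNA's sequence is not given in the labels. The words followed were CTACATA with its overlapping neighbour TACATAA, and GGCCATG with its neighbour GCCATGA. They were chosen for their frequency in the 3′ UTRs of genes that fell in these same libraries, so their counts are a description only. At least 1 of these words was in 48.2% of the 1874 lower genes with an annotated 3′ UTR and in 33.4% of all 10506 such genes. Of the 7 members that fell, Mars2 held 2 of the words and Pars2 1, while Iars, Aimp2, Aimp1, Eprs and Farsb held none in their longest annotated 3′ UTR; that of Mars2, with 9473 bases, is the longest among the members. Of the members that were not called, 9 also held at least 1 of the words (Nars, Nars2 and Hars2 held 2 each, and Aars, Iars2, Tars, Wars, Wars2 and Yars2 1 each). The part of these words in any of the changes was not tested.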

How the data were processed

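RNA sequencing values of 6 podocyte libraries, 3 given Tfeb siRNA and 3 given scrambled siRNA per the sample titles, were analysed. The authors deposited a table of FPKM values with gene positions and lengths, per the file headers, on build mm10, which the submitters' processing notes name; aligner, counter and strand use: not given in the sources used here. FPKM times gene length gave whole multiples of 1 step per library (100% of values, tolerance 1e-06), from which reads and depth were derived. The divisor that the authors used followed a median-ratio scaling of the libraries, so the deposited values were comparable between them. Read totals, given in the report, set the counting error only.

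The contrast of Tfeb siRNA against scrambled siRNA was fitted with limma (version 3.58.1, R 4.3.3) to log2(FPKM + 0.5), which understates changes of low genes. Of 53715 genes, 12257 averaged at least 1 FPKM and were tested. Tests were two-sided with eBayes and a trend, p-values were adjusted by Benjamini-Hochberg over all tested genes, and the threshold for a call was an adjusted p of 0.05. Adjusted p-values come from this model except where another setting is named. Errors are SD over n = 3 libraries. Alternatives were pseudocounts of 0.1 and 1 FPKM, no filter, TPM, the replicate block, each library left out, and limma-voom on derived reads; the last was chosen after seeing the data. Only the main fit, without a block, was tested on simulated data, and the alternatives were not.

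Residuals of Tfeb siRNA and scrambled siRNA libraries with the same replicate number correlated at 0.38, 0.13 and 0.17 for numbers 1, 2 and 3. Libraries of different numbers correlated at -0.24 to 0.11, with numbers 2 and 3 crossed at 0.11 and 0.10, close to their own values. Every own-number value passed 0.1, but so did the crossed value of 0.11, and only number 1 stood apart. Residuals were taken from the mean of each group of 3, so these correlations depend on one another. They cannot show that numbers 2 and 3 are pairs. Libraries of the same number were nevertheless treated as pairs in the block fit. This choice comes from the data, as the labels do not say what a number marks.

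Members and gene lists were chosen with earlier results of these data known. Members may be named, except 1 that is not reported here and is left out of the plots by gene, with full statistics for called members whose groups did not overlap and for the highest cytosolic and mitochondrial enzyme; of each further list, up to 2 called genes per direction are named, taken by the size of their log2 fold change, and Atf4, Asns and Eif2ak4 always. Genes listed behind a count, and Eif2ak1, Gm4849, Rab3gap2 and Exosc6, were added after their values were seen. GENCODE release M21 (mm10) served for exonic overlaps, shared 50-base words and 3′ UTRs, and RefSeq's promoter table (GRCm38.p6) for promoters. Protein sequences were not used here.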

Additional observations from a re-analysis of the deposited data

How the results depend on the processing

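Over 12 alternatives Iars, Aimp2 and Mars2 stayed called, and the pseudocounts of 0.1 and 1 FPKM changed no call or direction of the single genes followed and kept each count within 1.5 times (tRNA proofreading had 3 lower with 0.1 FPKM). Without the filter, where 29171 genes entered the adjustment, the counts of members higher, cytosolic higher and mitochondrial higher each became 0, mitochondrial lower became 1, the ATF4 list had 6 lower, the sensing list 3 higher and 1 lower, tRNA maturation 1 higher and 1 lower, mitochondrial charging 1 higher, and selenocysteine charging 1 lower. TPM gave 3 higher in the sensing list and 1 each in tRNA maturation and mitochondrial charging; it moved the median log2 fold change to -0.0325 over members, -0.0832 over cytosolic and 0.064 over mitochondrial synthetases, and that of all genes to -0.012 (0.015 in the deposited scaling), and it turned Nars to -0.023 and Aars to -0.0044. The cause of these changes was not tested.

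With the replicate block (pairing as described), 7 members, 3 cytosolic synthetases and 1 accessory gene were higher, and 3 of the ATF4 list; the other counts of members and lists stayed within 1.5 times. Voom on derived reads, chosen after seeing the data, called 1 accessory gene higher. The count models planned for derived reads were not run, since the deposited unit is FPKM.

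Leaving out 1 library at a time leaves fewer samples, and gave 0 to 2 members higher and 4 to 6 lower. Cytosolic counts were 0 to 1 higher and 1 to 3 lower, mitochondrial 0 to 1 higher and 1 to 2 lower, accessory 0 to 1 higher and 1 to 2 lower. The ATF4 list had 5 to 13 lower, the sensing list 2 to 4 higher and 1 lower, elongation 1 to 2 higher, tRNA maturation 1 to 2 higher and 1 to 2 lower, mitochondrial charging 1 to 3 higher and selenocysteine charging 1 to 2 lower. Median log2 fold changes ran between -0.0178 and 0.0116 over members and between 0.069 and 0.11 over mitochondrial synthetases. Log2 fold changes near 0 changed sign: Nars ran between -0.028 and 0.051, Gars between -0.0086 and 0.11, Aars between -0.013 and 0.056, Ears2 between -0.091 and 0.074, Asns between -0.024 and 0.015, and Eif2ak4 between -0.00208 and 0.088. Read numbers were lowest for Pars2 among called members, with 363 in Tfeb siRNA and 526 in scrambled siRNA libraries.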
